A study of Drosophila melanogaster with 2 samples.

Results

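The genes of the Drosophila circadian clock were examined for binding of CG7101, a protein known here only by its gene symbol. The 10 genes were per, tim, Clk, cyc, vri, Pdp1, cry, cwo, dco and cbt, named by their place in or next to the clock, out of 13945 protein-coding genes on the 6 chromosome arms used (2L, 2R, 3L, 3R, 4 and X). Every peak summit within 500 bp of a transcription start site (TSS) of these genes, or inside them, was taken. There were 31 such summits among the 6486 of the list that had passed an irreproducible discovery rate (IDR) step, and 119 among the 30000 of the list called on the pooled replicates. Chromatin immunoprecipitation and sequencing (ChIP-seq) had been done on whole adult females of a transgenic line that stably expresses CG7101 with green fluorescent protein (GFP) at its C-terminus, with an antibody against GFP and sonicated chromatin of 200 to 800 bp. There was 1 group with 2 biological replicates, so no comparison of conditions could be made. The age of the flies is given as unknown, and neither the promoter that drives the fusion nor the hour of collection is given in the labels. The control was not analysed here.

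The fly clock is a transcriptional feedback loop that runs in a set of brain neurons and in many peripheral tissues, among them photoreceptors, fat body and Malpighian tubules. CLOCK (Clk) and CYCLE (cyc) activate genes through E-boxes, PERIOD (per) and TIMELESS (tim) accumulate and block them, and VRILLE (vri) and PDP1 form another loop that acts on Clk itself. Whole flies mix clock cells with all others, so binding in few cells and weak binding in many cells cannot be told apart in the peak signal.

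The sequences around the strongest summits of 4 strongly bound members, and around those of the 2 members whose strongest summit was weakest, are shown for their base composition, described further on. That of cbt, the strongest of the 31 and less rich in A and T, stands in the other set. Each is the 101 bp centred on the summit in the Release 6 assembly (dm6) from RefSeq, 5′ to 3′ on the strand of the gene. The number after a gene's name is the distance of the summit in bp from the nearest TSS of that gene, negative for upstream. Capitals mark the longest run made of A and T alone (the first of 2 equal runs at cyc). It was 18 bp long at tim, 16 bp at vri and 10 bp at cry. It was 8 bp at cyc and 7 bp at both Pdp1 and Clk.
cry −231 (chr3R:19211873-19211973, plus strand): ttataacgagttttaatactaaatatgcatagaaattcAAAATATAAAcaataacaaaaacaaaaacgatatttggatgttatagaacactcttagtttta
Pdp1 +4492 (chr3L:7851006-7851106, minus strand): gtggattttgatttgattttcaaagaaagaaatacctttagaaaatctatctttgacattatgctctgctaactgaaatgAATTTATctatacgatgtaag
tim −85 (chr2L:3507639-3507739, minus strand): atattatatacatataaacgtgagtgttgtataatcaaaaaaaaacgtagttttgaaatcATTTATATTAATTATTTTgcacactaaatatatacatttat
vri +4412 (chr2L:5293306-5293406, plus strand): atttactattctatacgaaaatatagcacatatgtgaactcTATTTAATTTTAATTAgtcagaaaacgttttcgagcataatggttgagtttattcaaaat
cyc +70 (chr3L:19815818-19815918, minus strand): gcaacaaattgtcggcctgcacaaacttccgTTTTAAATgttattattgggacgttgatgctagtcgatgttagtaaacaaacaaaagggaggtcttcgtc
Clk +3217 (chr3L:7772336-7772436, minus strand): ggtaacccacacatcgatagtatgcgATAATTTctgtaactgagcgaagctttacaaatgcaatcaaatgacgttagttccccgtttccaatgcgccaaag

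The other set holds the summits whose 201 bp contained a full match to the word CACGTG, the E-box of CLOCK and CYCLE, or to TTACGTAA, the palindrome read by the VRILLE and PDP1 family of basic leucine zipper proteins. Capitals mark that word.
cbt −358 (chr2L:479946-480146, minus strand): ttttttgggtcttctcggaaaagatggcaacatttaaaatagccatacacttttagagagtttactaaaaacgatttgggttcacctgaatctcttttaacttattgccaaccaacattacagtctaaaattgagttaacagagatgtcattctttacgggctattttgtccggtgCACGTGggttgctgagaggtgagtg
Pdp1 −4090 (chr3L:7837063-7837263, minus strand): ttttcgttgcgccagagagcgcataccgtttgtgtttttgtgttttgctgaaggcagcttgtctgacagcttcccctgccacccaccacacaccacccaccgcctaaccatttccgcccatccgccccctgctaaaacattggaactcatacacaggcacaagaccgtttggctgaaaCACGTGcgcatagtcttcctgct
Pdp1 −166 (chr3L:7867435-7867635, minus strand): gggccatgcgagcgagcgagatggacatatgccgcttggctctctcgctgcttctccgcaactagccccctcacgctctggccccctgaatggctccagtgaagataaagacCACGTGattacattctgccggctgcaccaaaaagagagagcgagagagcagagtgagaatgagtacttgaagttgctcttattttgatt
vri −1145 (chr2L:5304405-5304605, plus strand): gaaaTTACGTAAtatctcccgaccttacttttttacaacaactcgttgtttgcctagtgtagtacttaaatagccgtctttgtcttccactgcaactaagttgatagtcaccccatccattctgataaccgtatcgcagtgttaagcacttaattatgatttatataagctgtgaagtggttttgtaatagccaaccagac

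Every clock gene had at least 1 IDR summit within 500 bp of a start or inside the gene, 10 of 10, where 36.6% of all protein-coding genes did. Within 500 bp of a start alone, 8 of 10 had one, all but Clk and cwo, where 33.3% of all genes did. Within 250 bp the count was 5 of 10, without per, dco and cbt as well, where 28.6% of all genes had one. In the larger pooled list all 10 had a summit within 500 bp of a start, beside 62.9% of all genes, and all 10 one there or inside, beside 66.6%. Gene length bears on these shares. The median length was 9786 bp for the clock genes and 2166 bp for all genes. The 5 members over 10 kb (tim, Clk, vri, Pdp1 and cwo) all had an IDR summit at a promoter or inside, beside 54.8% of genes of that length, and 3 of these 5 had one at a promoter, beside 42.8%. The 3 members under 4 kb (cyc, cry and cbt) all had a promoter summit, beside 28.5% of genes of that length. The other 2, per and dco, also both had one, beside 45.8% of genes of 4 to 10 kb. The peak lists hold no other condition, so these are counts set side by side, with no test.

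Most of the IDR summits lay away from the starts, the larger part of them in Pdp1 and vri. Of the 31 IDR summits, 22 were in introns, 4 in 5′ UTRs, 5 upstream of the gene, and 0 in coding exons. Only 9 of the 31 (29.0%) lay within 500 bp of any annotated TSS, against 4076 of all 6486 IDR summits (62.8%), and 8 of those 9 were upstream of their nearest start. Pdp1 and vri held 15 of the 22 summits outside the promoter windows, and in the other 8 genes 6 of 13 summits (46.2%) were promoter summits. The strongest summit was a promoter summit in 5 members and an intronic summit elsewhere in the other 5.

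**Figure D1:**
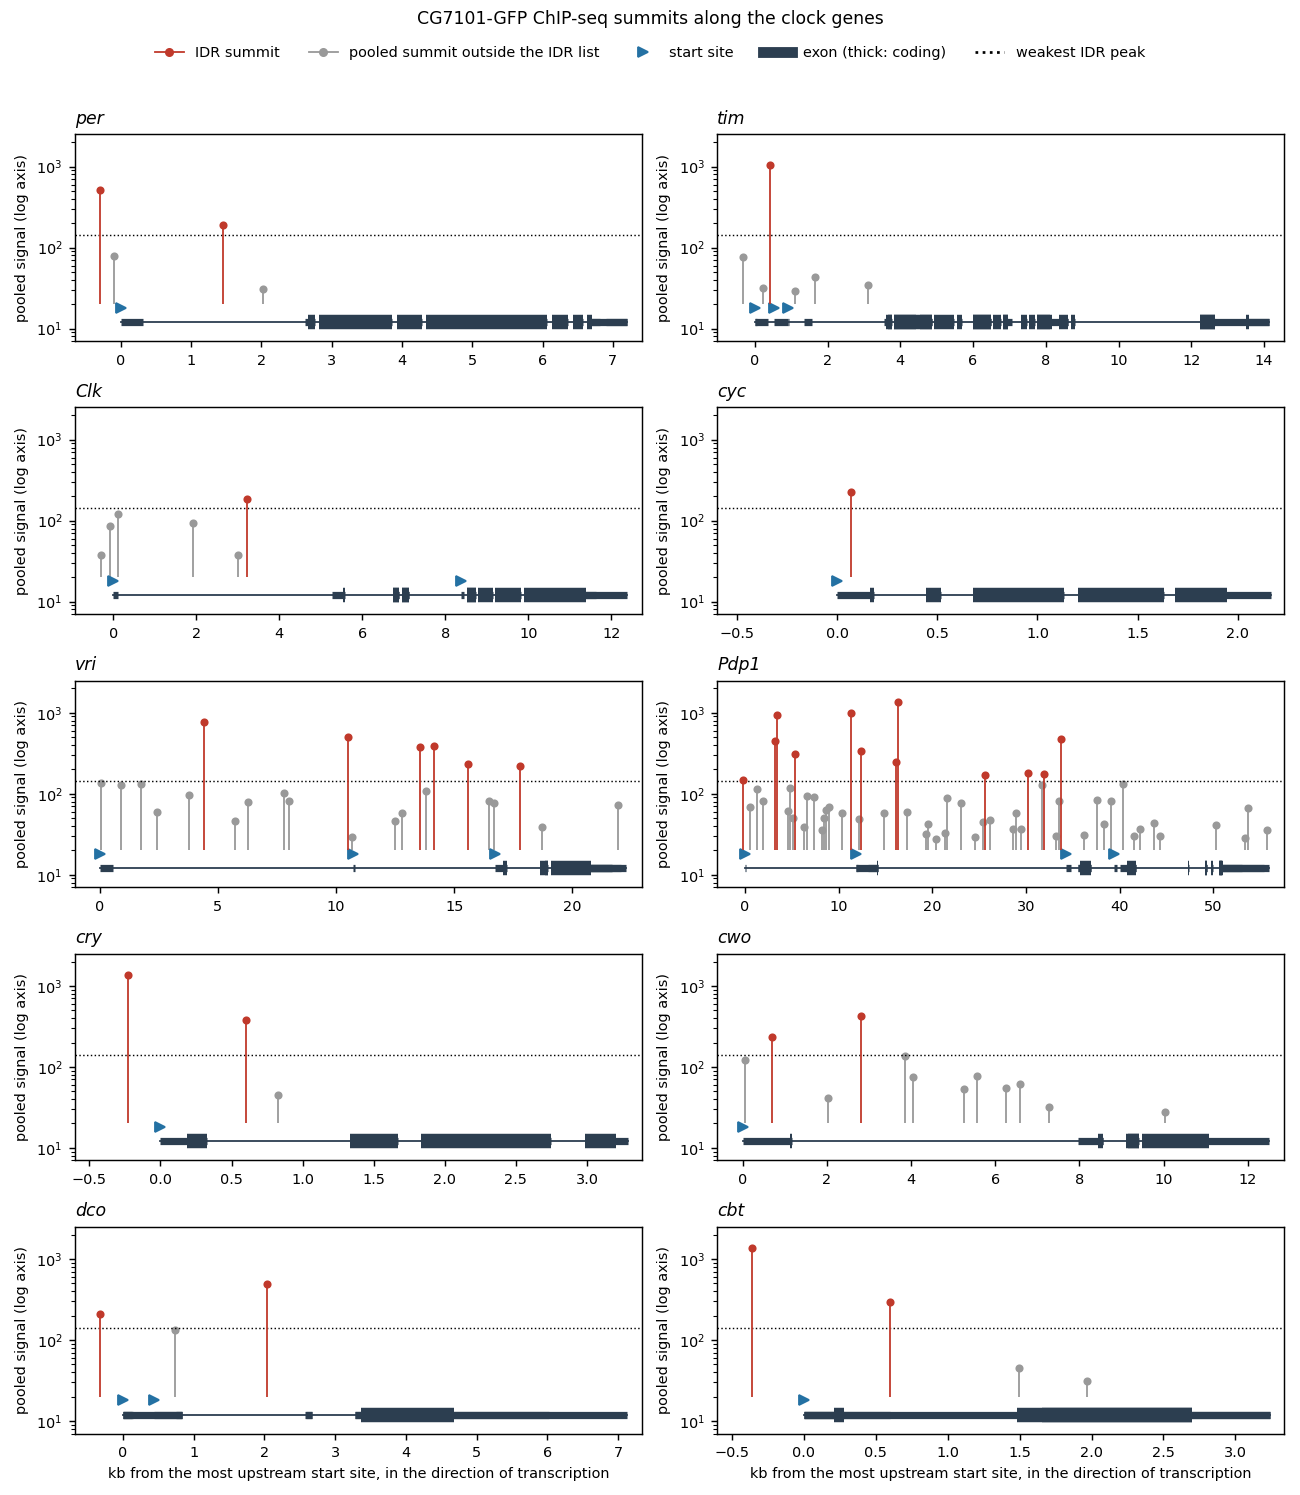
Peak summits along the 10 clock genes. The x axis is the distance in kb from the most upstream start in the direction of transcription, the y axis is the pooled signal (log axis), red points are IDR summits, grey points are pooled summits outside the IDR list, triangles are start sites, and bars are exons with coding parts thicker. The tallest red points lie just upstream of cry and cbt and in an intron of Pdp1, and Pdp1 holds 12 of the 31 IDR summits.

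Signal is the peak strength written by the authors' peak caller, on a scale that the sources used here do not state, and rank 1 is the strongest peak of a list. The genes of the negative limb, per and tim, were both bound near a start. At per (FBgn0003068, chrX:2685580-2692780, plus strand), whose product PERIOD represses CLOCK and CYCLE, the stronger of 2 IDR summits lay 289 bp upstream of the only start, in a peak at chrX:2685132-2685434. Its signal was 322 in replicate 1, 187 in replicate 2 and 514 in the pooled list, at ranks 1001, 1644 and 1187. The other per summit, in the first intron at +1448, was uneven between replicates. It ranked 10836 in replicate 1 (signal 49.9) and 2223 in replicate 2 (signal 151), and 4569 in the pooled list.

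At tim (FBgn0014396, chr2L:3493986-3508119, minus strand), whose product TIMELESS stabilises PERIOD and is degraded in light, there was 1 IDR summit and it sat among 3 alternative starts. It lay 85 bp upstream of the start of transcript tim-RO, at −471 of the start shared by 6 other transcripts and at +430 of the most upstream one, so that all 3 starts count the same peak (chr2L:3507363-3507909). Its signal was 659 in replicate 1 and 387 in replicate 2, at ranks 279 and 509, and 1033 in the pooled list, at rank 361. None of the 5 other tim summits of the pooled list exceeded a signal of 75.4.

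The genes of the positive limb had the weakest leading summits of the 10. Clk (FBgn0023076, chr3L:7763233-7775603, minus strand) encodes the basic helix-loop-helix activator of the loop and had its only IDR summit inside an intron, at +3217 of the longer transcripts' start (chr3L:7772178-7772593). Its signals were 97.2 in replicate 1 and 89.3 in replicate 2, at ranks 5125 and 4611, with 187 and rank 4667 in the pooled list. Within 500 bp of that start the pooled list held 3 weaker summits, the strongest at +124 with a signal of 121 and rank 7719. In replicate 1 the peak matched to the +124 summit had a signal of 98.2 at rank 5061, just above the intronic one. In replicate 2 the match had 59.3 at rank 7624, below the intronic one, so the order of these Clk summits changed with the replicate. The internal start of Clk-RG and Clk-RH had 0 summits in either list. The gene for its partner, cyc (FBgn0023094, chr3L:19813770-19815938, minus strand), had a single summit in both lists, 70 bp into the 5′ UTR (chr3L:19815660-19816075). It ranked 5597 in replicate 1 (signal 90.4) and 3942 in replicate 2 (signal 99.8), and 3602 in the pooled list with a signal of 227. A stronger IDR peak 2054 bp upstream of cyc, with a signal of 485, lay 25 bp from the start of Fibp and was not counted for cyc.

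The loop of vri and Pdp1, the longest of the clock genes, carried the most summits. Per 10 kb of gene, IDR summits numbered 2.69 at vri and 2.15 at Pdp1, within the range from 0.708 at tim to 6.17 at cbt. At vri (FBgn0016076, chr2L:5288944-5311223, plus strand), which encodes the bZIP repressor of Clk, 6 IDR summits all lay in introns and only the summit 209 bp upstream of the vri-RC start was near a start. That promoter summit had a signal of 307 in replicate 1, 200 in replicate 2 and 502 in the pooled list, at ranks 1058, 1481 and 1227. The strongest was deep in the first intron, at +4412 of the vri-RE start (summit at position 5293356), with signals of 452 and 314 at ranks 558 and 764 in the replicates, and 767 at rank 624 in the pooled list. The remaining 4, at +2832, −2548, −1145 and +1085 of their nearest starts, had pooled signals from 220.0 to 387. The vri-RE start itself had a pooled summit at +80 that fell outside the IDR list, with a signal of 135 and rank 6870, and the noncoding gene lncRNA:CR44743 also starts within 500 bp of it. The start shared by vri-RA, vri-RD and vri-RF likewise had none in the IDR list, and in the pooled list it had 2, of 80.7 at −236 and of 76.2 at −7.

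Pdp1 (FBgn0016694, chr3L:7811458-7867369, minus strand), a bZIP activator of Clk with several isoforms, is 55912 bp long and held 12 IDR summits and 57 pooled ones. Among all protein-coding genes only 12, Pdp1 included, had 12 or more IDR summits. The strongest lay in an intron at +4492 of the start shared by Pdp1-RB and 6 other transcripts (chr3L:7850823-7851397), with signals of 742 in replicate 1 and 605 in replicate 2, at ranks 219 and 216, and 1353 in the pooled list, at rank 218. Another summit was called in the same interval at +4290 with a pooled signal of 249, and in replicate 2 it matched the same peak as the strong one, 171 bp away. The 4 Pdp1 starts differed. The Pdp1-RB start had a summit 456 bp upstream with signals of 549 and 446, at ranks 400 and 398 in the replicates, and a pooled signal of 999 at rank 393. The start of Pdp1-RF and Pdp1-RO had a summit 166 bp upstream with a pooled signal of 146, rank 6235, the weakest of all 31. The start of Pdp1-RD and Pdp1-RJ had none within 500 bp, although a summit of signal 479 stood 521 bp upstream, and the start of Pdp1-RC and Pdp1-RL had only a pooled summit of 82.0 at −224. Intronic summits at +3451 (pooled signal 941, ranks 417 and 513 in the replicates) and +3250 (448, ranks 1525 and 1684) lay in the first intron of Pdp1-RF and Pdp1-RO. The intronic summit at −2336 was among the weak ones, with a pooled signal of 176 at rank 4993, and ranked 8166 in replicate 1 and 3106 in replicate 2.

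The photoreceptor gene cry had a strong promoter summit, and cwo had its IDR summits downstream of the start. At cry (FBgn0025680, chr3R:19212154-19215442, plus strand), which encodes the blue-light receptor CRYPTOCHROME, the main summit lay 231 bp upstream of the start (chr3R:19211695-19212167). It had a signal of 801 in replicate 1 and 578 in replicate 2, at ranks 193 and 236, and 1362 in the pooled list, at rank 212. The noncoding gene lncRNA:CR46393 starts at the same base on the same strand, so the summit cannot be assigned to cry alone. The other cry summit, in an intron at +604, had signals of 215 and 180 in the replicates, at ranks 1757 and 1720, and 383 in the pooled list. At cwo (FBgn0259938, chr3R:10388258-10400752, plus strand), whose product CLOCKWORK ORANGE represses through E-boxes, 2 IDR summits lay beyond the promoter window. The summit at +2819 in an intron had signals of 258 and 174 in the replicates and 429 in the pooled list, at rank 1528, and the summit at +689 in the 5′ UTR had 159 and 82.6, with 237 in the pooled list. At the cwo start itself the pooled list held a summit at +46 with a signal of 123 and rank 7584.

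The kinase gene and cbt each had a summit upstream and a summit downstream of the start, and in both replicates the stronger was the downstream one at dco and the upstream one at cbt. At dco (FBgn0002413, chr3R:31054085-31061210, minus strand), which encodes the casein kinase DOUBLETIME that phosphorylates PERIOD, the intronic summit at +1595 was the stronger, with signals of 221 in replicate 1 and 265 in replicate 2, at ranks 1708 and 975, and 490.3 in the pooled list. The dco summit 318 bp upstream of the start of 4 of the 5 transcripts had 80.6 and 127 in the replicates, at ranks 6412 and 2827, and 208 in the pooled list. At cbt (FBgn0043364, chr2L:476446-479688, minus strand), which encodes the zinc finger factor Cabut, the upstream summit was the stronger. It lay 358 bp before the start (chr2L:479547-480339) and had signals of 781 and 570 in the replicates, at ranks 199 and 243, and 1369 in the pooled list, at rank 211. The cbt summit at +600 in the 5′ UTR had 121 and 188 in the replicates, at ranks 3857 and 1618, and 295 in the pooled list. Both cbt summits also lie inside ush, a gene on the opposite strand whose nearest start is 3468 bp from that of cbt. A far stronger peak, outside the window used here, stood upstream of cbt and within ush at −1368 of the cbt start (chr2L:480515-481385). It had a pooled signal of 4478 at rank 10, and ranks of 10 and 14 in the replicates.

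Ordered by their strongest summit, the clock genes fell into steps that held in both replicates and ties that did not. The pooled ranks were 211 for cbt, 212 for cry and 218 for Pdp1, then 361 for tim, 624 for vri, 1187 for per, 1265 for dco, 1528 for cwo, 3602 for cyc and 4667 for Clk. Among cbt, cry and Pdp1 the order changed with the replicate, since cry was first in replicate 1 (193, before 199 for cbt and 219 for Pdp1) and Pdp1 was first in replicate 2 (216, before 236 for cry and 243 for cbt). The order of per, dco and cwo changed as well, with per first in replicate 1 and dco first in replicate 2. Clk ranked above cyc in replicate 1 and below it in replicate 2. In both replicates tim and vri stood, in that order, between the first 3 genes and the group of per, dco and cwo, and cyc and Clk came last. Set among all IDR peaks by pooled signal, the peaks of the clock genes stood next to those of many other genes. The peak next above that of tim lay nearest Rev1 (1035) and the next below nearest cm (1031), and that of vri stood between peaks nearest Syx4 (768) and Trpm (766). That of cry stood between the peak of cbt (1369) and a peak nearest Mppe (1361). The same neighbours were LPCAT and POSH for Pdp1, SH3PX1 and CG10214 for per, CG15211 and NiPp1 for dco, CG34404 and ND-MNLL for cwo, CLIP-190 and CG9903 for cyc, and pico and CG8389 for Clk.

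The 31 IDR summits were all matched by a peak in both replicates, as were 6463 of all 6486 (99.6%). Replicate ranks lay within 2-fold of each other for 25 of the 31, and their Spearman correlation was 0.76 (n = 31 summits, which share 2 libraries, and 12 of which share Pdp1). Of the 31, 29 were among the 6486 strongest peaks of replicate 1 (93.5%, against 89.9% of all IDR summits) and 29 among those of replicate 2 (93.5%, against 88.2%). The median pooled signal was 373 at the clock genes and 245 over all IDR summits, and 20 of the 31 exceeded the median of all IDR summits.

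**Figure D2:**
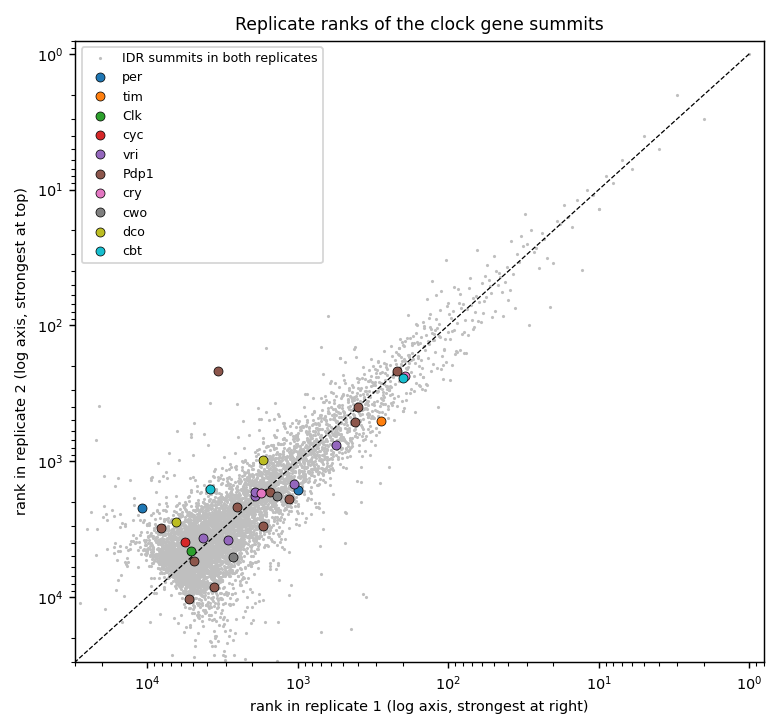
Rank of each clock gene summit in replicate 1 (x axis) and replicate 2 (y axis), both on log axes with the strongest at the right and top. Coloured points are the 31 IDR summits of the clock genes and grey points the 6463 IDR summits matched in both replicates. The Pdp1 point far above the diagonal is the summit at +4290, which shares a replicate 2 peak with its stronger neighbour, and the per point at the far left is the summit at +1448.

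The IDR list is where pooled signal reaches 142, and members lay close to that limit on both sides. The weakest member inside was the Pdp1 summit at −166 (146) and the strongest outside the cwo summit at +3853 (137). Of the 88 pooled summits outside the IDR list, 70 were matched in both replicates, 16 in 1 and 2 in neither. Counted by start, the 10 genes have 19 annotated start sites, of which 11 had an IDR summit within 500 bp and 17 a pooled one. The Clk-RG and Pdp1-RD starts were the 2 without any. The 3 tim starts among the 11 share 1 summit, and the share over all annotated starts was not computed. The 500 bp window also has members near its edge, with the Pdp1 summit at −456 inside and those at −521 and +530 outside.

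Strong summits of the clock genes were richer in A and T than weak ones. In the 201 bp around the summit, the 10 strongest of the 31 had a median G and C content of 28.9%, and the 10 weakest 45.3%. All 10 of the strongest were below the G and C content of their own flanks (400 to 600 bp away, median 38.9%), and 3 of the 10 weakest were below theirs (median 36.8%). The lowest values were 18.9% at tim −85 and at Pdp1 −521, and 20.9% at Pdp1 −456 and Pdp1 +5382, whereas the strongest summit of all, cbt −358, had 38.3%. The median of the longest run of A and T within 101 bp was 13 bp in the 10 strongest and 7 bp in the 10 weakest, and the longest run was 21 bp, at Pdp1 −521. Over all IDR summits the strongest 2162 had a median G and C content of 33.8% and the weakest 2162 of 38.8%, with runs of 11 and 8 bp. Of those, 1762 of the strongest 2162 and 1345 of the weakest 2162 were below the content of their own flanks, so such a dip is not particular to the clock genes. The strength classes are not alike, since the 10 strongest clock gene summits began at a signal of 490 and the strongest 2162 at 332. Over the 31 summits the Spearman correlation of G and C content with signal was −0.68, and without Pdp1 it was −0.65 (n = 19). Over all 6486 IDR summits it was −0.25, and over the 2410 that lie more than 500 bp from a TSS it was −0.17. The summits share 2 libraries and genes, so these are descriptions without a test. They were computed after the values had been seen, and the part of base composition in the peak signal was not tested. Over all 31 the median G and C content was 38.8%, against 36.3% in all IDR summits.

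**Figure D3:**
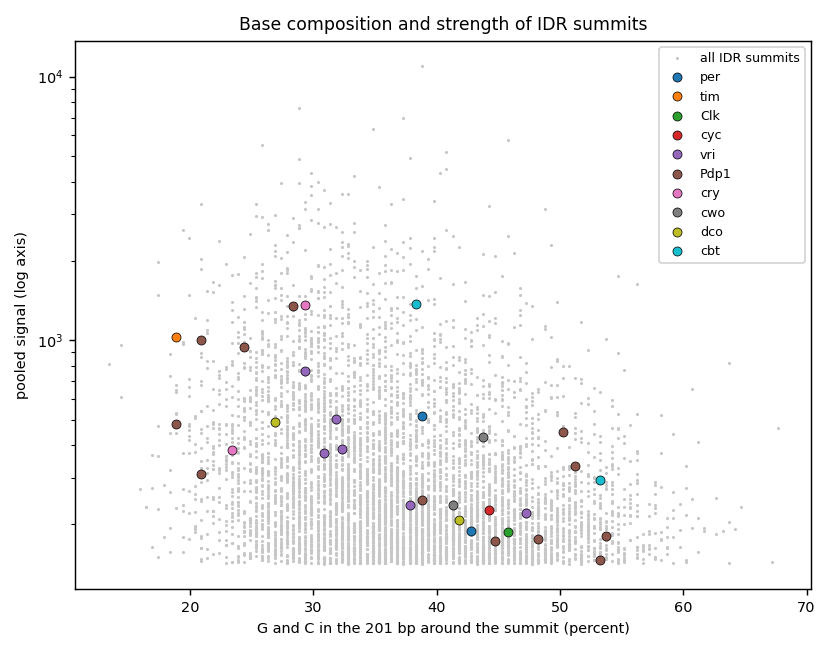
G and C content of the 201 bp around each summit (x axis, percent) and its pooled signal (y axis, log axis). Coloured points are the 31 clock gene summits and grey points all 6486 IDR summits. The lowest clock gene points in G and C, both at 18.9%, are tim −85 (signal 1033) and Pdp1 −521 (479). The highest is Pdp1 −4090 at 53.7% (181). The strongest point, cbt −358 (1369), is at 38.3%, and the weakest, Pdp1 −166 (146), is at 53.2%.

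The words read by clock factors were present at few of the summits. CACGTG lay within 100 bp of 3 of 31 summits, or 9.68% (exact Clopper-Pearson 95% interval 2.04 to 25.8%), against 2.37% of all IDR summits, which is within that interval. Within 150 bp it was at 16.1% (5.45 to 33.7%), against 4.02% of all IDR summits, which is below that interval, so the reading depends on the window. Those 5 summits all lay at Pdp1 and cbt. The interval treats the summits as independent, but 12 of the 31 share Pdp1. The 3 summits with the word within 100 bp were cbt −358, Pdp1 −4090 and Pdp1 −166, shown above. The promoter summits of per, tim, cyc, vri, cry and dco did not hold it. The wider E-box CANNTG, which includes CACGTG, was found at 20 of 31 (64.5%) and at 60.7% of all IDR summits. TTACGTAA was found at 1 of 31, vri −1145, and at 0.231% of all. Among words of promoter factors, TATCGATA, the DREF element, was at 0 of 31, for which the exact interval reaches 11.2%, against 5.69% of all IDR summits. GGTCACACT, the word of M1BP, was also at 0 of 31, against 2.93%. CGATA, the core of BEAF-32 sites and part of TATCGATA, was at 7 of 31 (22.6%, interval 9.59 to 41.1%), against 35.1%, which is within that interval. Those 7 were Clk +3217 with 2 matches, vri −1145, Pdp1 −8721, cry −231, dco +1595 and both cwo summits. For these promoter words the sets differ in place: 29.0% of the clock gene summits lay within 500 bp of a TSS, against 62.8% of all IDR summits. Both strands were searched for all 6 words. A match is a string of letters and not a shown site, and intervals cover counting error only.

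Genes that act around the clock were taken as 4 lists with 50 genes in all, of which 22 had an IDR summit within 500 bp of a start. Among 15 kinases, phosphatases and protein turnover factors 11 had one (73.3%), beside 8 of 10 clock genes and 33.3% of all genes. The strongest were at sgg, the GSK3 kinase that phosphorylates TIMELESS (signal 1058, −182), at mts, the catalytic subunit of protein phosphatase 2A (1006, −353), and at tws and wdb, its regulatory subunits (598 at −28 and 476 at +28). Among 15 transcription and translation regulators 9 had one (60.0%). The strongest summits in or near these genes were at Trl, the GAGA factor (3301, +1540), brm, the ATPase of the Brahma remodeller (2220 at −141), Eip75B, a nuclear receptor that had 12 IDR summits (809, −3813), and kay, the fly Fos (585, +1074). Genes of clock neuron signalling and output had a promoter summit in 1 of 14 (7.14%), the neuropeptide gene sNPF, with a signal of 155 at −311. In that list wake, a sleep regulator, and ITP, a neuropeptide, had IDR summits farther away, of 403 at +952 and 217 at −540, while Pdf, the neuropeptide of the pacemaker neurons, and its receptor gene Pdfr had 0. Of 6 light input genes only norpA, the phospholipase C of phototransduction, had any IDR summit within 500 bp of a start or inside the gene. Its strongest had a signal of 3440 at +1379 and rank 23. Peaks beyond that window were not counted for these lists. The summits credited to mts and brm each lie nearer to the start of a neighbouring gene. In the larger pooled list 10 of the 14 signalling and output genes had a promoter summit, beside 62.9% of all genes. The pooled count was 15 of 15 for the kinase and turnover genes, 12 of 15 for the regulators and 2 of 6 for light input. The 4 lists differ in gene length and in the tissues that use them, and no test was run on them. CG7101 itself (chrX:18830591-18832123) had 0 IDR summits and 1 pooled summit.

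**Figure D4:**
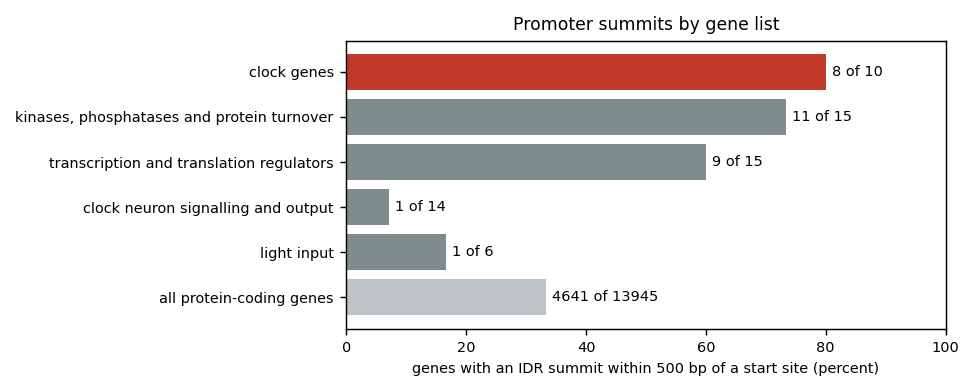
Share of genes with an IDR summit within 500 bp of a start (x axis, percent), for the clock genes, the 4 lists around them and all protein-coding genes, with the counts beside each bar. The clock genes stand at 8 of 10, the kinase and turnover list at 11 of 15, and clock neuron signalling at 1 of 14.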

How the data were processed

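ChIP-seq peak lists of 2 biological replicates of 1 group were used, with the list called on both replicates pooled and the IDR list. Per the deposited file descriptions, peaks were called against a control, and the IDR list came from the replicate and pooled lists. For aligner, peak caller and IDR threshold, names and values were not given in the sources used here. The lists give a signal, which the authors deposited as peak strength, and the −log10 q as deposited, which was 4.32 at all 6486 IDR peaks and not used for ranking. Replicate and pooled lists hold 30000 peaks each, and 84.2% of pooled peaks are 416 bp wide. Signal was compared within a list only. The lists hold no read counts, so the depth behind each peak, and the precision it gives, is unknown.

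Coordinates are dm6 per the labels, printed counting from 1. Genes and TSSs came from Ensembl release 115, and the coordinates of 10 of 10 clock genes were equal in the RefSeq table. A summit was matched to the replicate peak overlapping its pooled peak by at least 1 bp. The members, gene lists and words were chosen with earlier results of these data known. The text names the 10 members with all IDR summits, the 4 genes of each list with the strongest summit, CG7101, other genes starting within 500 bp of a member IDR summit, and the genes nearest the IDR peaks next above and below each member's strongest. A neighbour of cbt in that order is not reported here. Fibp, ush, lncRNA:CR44743, Pdf and Pdfr were added after their values were seen. Other windows, peak lists, single replicates, match rules and word windows were tried. Assignment and word search were tested on simulated data. The software was Python 3.11.15 with pandas 2.3.3 and numpy 2.4.6, scipy 1.17.1 for intervals, and matplotlib 3.10.9 for figures.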

Additional observations from a re-analysis of the deposited data

How the results depend on the processing

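The 10 clock genes all kept a summit at a promoter or inside the gene under each setting except the 3243 strongest IDR peaks, where Clk and cyc lost theirs and 8 remained. The 8 genes with a promoter summit became 5 with a window of 250 bp, without per, Clk, cwo, dco and cbt, and 9 with 1000 bp. Beside these changed settings, the share of all genes was computed only for 250 bp and for the whole pooled list. In the 3243 strongest IDR peaks the count was 6, without Clk, cyc, cwo and dco. With the 6486 strongest peaks of a single replicate in place of the IDR list the count was 9 without replicate 1 (all but Clk) and 9 without replicate 2 (all but cwo), and the summits numbered 33 to 34, against 31 in the IDR list. That number was 20 in the 3243 strongest IDR peaks and 119 in the whole pooled list. A replicate match needing reciprocal overlap of at least 50% of each peak left 25 of 31. With 50 bp either side of the summit CANNTG was at 35.5% of the clock gene summits, beside 36.3% of all IDR summits, and TTACGTAA at 0%. With 150 bp the share of all IDR summits with CACGTG fell outside the interval of the clock gene summits, whose matches all lay at Pdp1 and cbt. Of 35 alternative values, 30 stayed within the limits set for a change, which were wide. The values counted as unchanged include CACGTG at 3.23% with 50 bp and 16.1% with 150 bp, and a promoter count of 6. No paired analysis was possible because there was 1 group. Depth is unknown, so a gene without a summit was only not listed at the depth of these libraries.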
